A study of Mus musculus with 4 samples.

Results

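10 genes that encode checkpoint and costimulatory molecules were followed across 4 RNA-seq libraries of mouse peritoneal macrophages. The genes were taken by symbol (Cd274, Pdcd1lg2, Cd80, Cd86, Cd276, Vsir, Lgals9, Havcr2, Cd200r1 and Pvr), and each matched a row of the deposited table of 54532 genes. The cells were labelled WT macrophages of peritoneal fluid, and each condition was 1 library. The 4 conditions were normal medium (0% 4T1) with DMSO, normal medium with 10 µM CH223191, 30% 4T1-conditioned medium (4T1-CM) with DMSO, and 30% 4T1-CM with 10 µM CH223191. 4T1 is a mouse mammary carcinoma line, and conditioned medium carries what those cells release. CH223191 is an antagonist of the aryl hydrocarbon receptor (AHR), a ligand-activated transcription factor, and DMSO is its solvent. In the study's general protocol, peritoneal macrophages come from thioglycollate-injected BALB/c mice, so they are elicited rather than resident cells. The labels give neither the time in culture nor the number of mice behind a library.

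T cells need a second signal besides antigen, and the B7 family on antigen-presenting cells supplies it. CD80 and CD86 bind CD28, which stimulates, and CTLA-4, which restrains. PD-L1 (Cd274) and PD-L2 (Pdcd1lg2) bind PD-1 and restrain T cells, and PD-L1 also favours the formation of regulatory T cells. Macrophages carry these ligands together with inhibitory receptors of their own, such as TIM-3 (Havcr2) and the CD200 receptor (Cd200r1).

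All 10 genes had at least 10 reads in at least 1 library, and 9 of them had at least 10 in every library. Pdcd1lg2 reached 10 reads only in 4T1-CM with CH223191. The libraries held between 15535405 and 17557127 counted reads, so that 3 reads, the floor used here for a level called detected, were worth 0.171 to 0.189 CPM (the TMM-scaled count relative to the size of the library). Of 8 macrophage markers, all were detected, at a summed 14303 and 18500 CPM in normal medium and 40651 and 43449 CPM in 4T1-CM (DMSO first, then CH223191). Lyz2 alone made up most of these sums, at 11888, 15185, 32957 and 35572 CPM. The 4 T cell markers Cd3d, Cd3e, Cd3g and Cd8a had 0 reads in every library. In the same order, 7 neutrophil markers summed to 9.16, 14.1, 155 and 72.5 CPM, with Ly6g, Retnlg and S100a9 at 0 throughout, and 6 fibroblast markers to 63.0, 30.1, 149 and 127 CPM. Mmp8 alone held 122 and 46.7 CPM of the neutrophil sums in 4T1-CM. B cell markers summed to 0.314 to 1.17 CPM, dendritic cell markers to 1.26 to 3.83 CPM, T cell markers to 1.48 to 2.26 CPM, mast cell markers to 0 to 0.185 CPM and tumour epithelial markers to 0.439 to 1.35 CPM. In bulk RNA, more or fewer cells of a type and more or less RNA per cell cannot be told apart. No 2 libraries were tested against each other, for want of replicates, and a gene was called only when 2 libraries differed at least 2-fold. The 95% intervals below are exact intervals of how a gene's reads split between 2 libraries, so they cover counting error alone and compare libraries, not conditions.

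The sequence just upstream of the start site is shown for the gene whose level rose with 4T1-CM and is the ligand of PD-1 (Cd274), for the receptor that rose with it (Havcr2) and for the member that fell (Vsir). The sequences are RefSeq windows of GRCm38.p6, printed 5′ to 3′ on the strand of the gene, and 7 of the 10 genes had one. Capitals mark the AHR core GCGTG in Cd274 and, in Havcr2, the AP-1-like pattern TGANTCA, a looser form of the AP-1 motif with any middle base. The first Cd274 line is a 30-base site at chr19:29367225-29367254, the second the 129 bases at chr19:29367309-29367437, the Havcr2 line is chr11:46454681-46454930 and the Vsir line is chr10:60346601-60346850.
Cd274 upstream site: actggaattaagGCGTGtgtcaccgcaccg
Cd274 upstream: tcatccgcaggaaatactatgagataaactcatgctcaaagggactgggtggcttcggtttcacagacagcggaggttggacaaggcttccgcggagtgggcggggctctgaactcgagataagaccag
Havcr2 upstream: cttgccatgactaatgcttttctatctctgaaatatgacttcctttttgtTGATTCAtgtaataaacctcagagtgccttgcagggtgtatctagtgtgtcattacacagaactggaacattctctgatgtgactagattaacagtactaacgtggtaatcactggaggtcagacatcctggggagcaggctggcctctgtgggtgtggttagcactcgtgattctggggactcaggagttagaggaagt
Vsir upstream: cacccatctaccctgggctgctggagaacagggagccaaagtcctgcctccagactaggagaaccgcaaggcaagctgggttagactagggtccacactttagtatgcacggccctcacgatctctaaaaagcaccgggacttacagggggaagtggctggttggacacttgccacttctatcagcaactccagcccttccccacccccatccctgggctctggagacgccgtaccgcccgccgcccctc

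In the 250 bases before each of the 7 start sites, 7 motifs were searched on both strands. The start sites are those of RefSeq and can differ from the gene coordinates given below. Those of Cd80 (chr16:38458933) and Cd276 (chr9:58555033) fall inside the annotated genes, and so do their windows. That of Lgals9 (chr11:78984924) also falls inside its gene, and its window reaches partly into an exon of Lgals9. GCGTG stood 201 to 197 bases before the start of Cd274 and in no other of the 7 windows, while 28.1% of 32817 windows of this length held it. That site lies inside an annotated untranslated exon of Plgrkt, which is read from the opposite strand. TGANTCA, held by 6.75% of windows, stood 200 to 194 bases before the start of Havcr2 and 42 to 36 bases before that of Cd80. Both matches read TGATTCA, which fits the looser pattern only. The ISRE core, GAAA repeated after a spacer of 2 free bases and held by 2.97% of windows, was found in Lgals9 at 55 to 46 bases, and the NF-kB motif, held by 7.25%, in Pdcd1lg2 at 244 to 235 bases. The GAS motif TTCNNNGAA (7.01% of windows), the TATA box TATAAA (12.4%) and the E-box CACGTG (6.02%) were in none of the 7, and the Vsir window held none of the motifs. A match here describes letters in a window, not a bound site.

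Cd274, scaled for gene length (RPKM), was the member with the highest level in 4T1-CM, while in CPM Vsir was above Cd274 there. It lies on the plus strand at chr19:29367455-29388095 (GRCm38), with 7 exons in its annotated transcript. Its 1247, 1539, 6284 and 6091 reads (normal medium with DMSO and with CH223191, then 4T1-CM with DMSO and with CH223191, the order used throughout) came to 78.2, 96.8, 359 and 375 CPM. Both 4T1-CM libraries were thus well above both libraries in normal medium, whatever the inhibitor. The libraries of a medium differ in CH223191 and are not replicates. How many of all genes separate the media in this way was not counted, here or for the members below. The log2 ratio of 4T1-CM over normal medium was 2.20 (2.11 to 2.29) with DMSO and 1.95 (1.87 to 2.04) with CH223191, a 4.59-fold and a 3.87-fold difference. CH223191 over DMSO gave log2 ratios of 0.31 (0.20 to 0.42) in normal medium and, with 4T1-CM, of 0.06 (0.01 to 0.11). PD-L1 mRNA was therefore not lower in either library with the AHR antagonist, and neither of these ratios reached 2-fold. Of the 50-base words of Cd274, 10.4% also occur in an antisense gene annotated at the same locus, which was not analysed here.

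Cyp1b1 and Nqo1, classical targets of AHR, were read in the same libraries for orientation. Cyp1b1, a cytochrome P450 induced by AHR, had 65, 19, 361 and 171 reads, and CH223191 over DMSO was -1.74 in normal medium and, with 4T1-CM, -0.97 on the log2 scale. Nqo1, a quinone reductase that is also an AHR target, had 28, 18, 70 and 33 reads, with log2 ratios of -0.62 and -0.97 for the inhibitor. Ahr itself had 30, 21, 150 and 167 reads. By these ratios Cyp1b1 and Nqo1 were lower with CH223191 in both media, but only Cyp1b1 in normal medium passed 2-fold. No counting interval was taken for either gene, and Nqo1 rests on few reads. Both were picked after their values were seen. The study also lists Cyp1a1 and Tsg6 among genes downstream of AHR, and their levels are not given here. Cd274 was level or slightly higher with CH223191 in the same libraries, and whether its level depends on AHR was not tested. Actb, a housekeeping gene, had log2 ratios between -0.12 and 0.34 in the 4 comparisons.

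**Figure D1:**
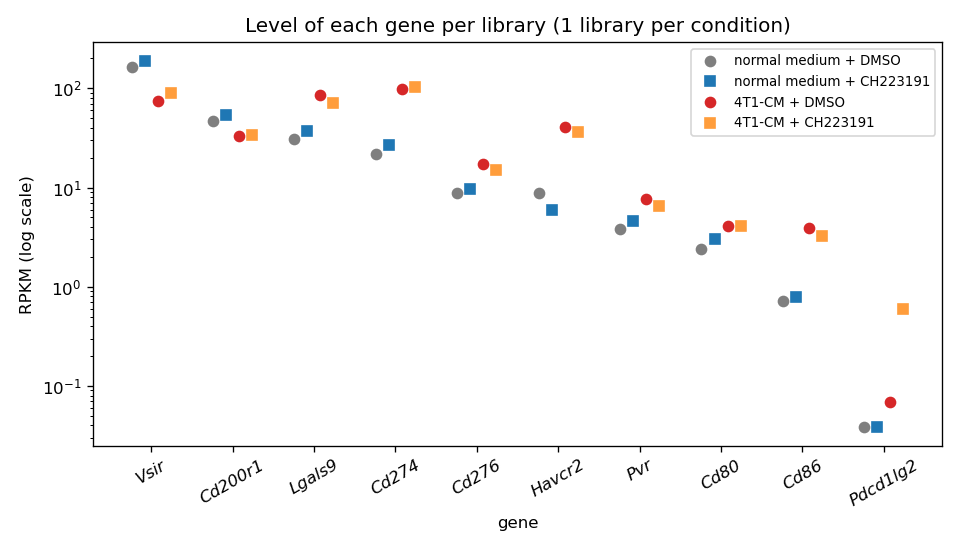
Level of each gene in RPKM (CPM per kilobase of the deposited gene length, log axis) in each of the 4 libraries, 1 point per library with no error bar. Cd274 and Havcr2 sit higher in both 4T1-CM libraries, Vsir sits lower in both, and Pdcd1lg2 lies below 1 RPKM in every library.

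PD-L2, the other ligand of PD-1, was near the limit of detection. Pdcd1lg2 starts 22823 bases downstream of the end of Cd274, at chr19:29410919-29471157, and had 1, 1, 2 and 16 reads. With DMSO both of its libraries held 3 reads or fewer, so no fold was taken. Only the 4T1-CM library with CH223191 exceeded the floor, at 0.985 CPM. Its log2 ratio was 3.43 (1.28 to 9.36) over normal medium with CH223191 and 2.83 (1.02 to 6.27) over 4T1-CM with DMSO. Both ratios rest on 16 reads in 1 library.

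CD80 and CD86, the paired ligands of CD28 and CTLA-4, differed in how far they moved with 4T1-CM. Cd86 (chr16:36603869-36666081, minus strand) had 42, 46, 248 and 191 reads, or 2.63, 2.89, 14.2 and 11.8 CPM. Cd80 (chr16:38455561-38496335, plus strand) had 142, 177, 263 and 245 reads, or 8.91, 11.1, 15.0 and 15.1 CPM. Cd86 rose past 2-fold in both comparisons, with log2 ratios of 2.41 (1.95 to 2.93) with DMSO and 2.01 (1.55 to 2.52) with CH223191. Cd80 stayed within 2-fold, at 0.75 (0.45 to 1.06) and 0.44 (0.15 to 0.73). On the RPKM scale Cd80 stood 3.34 and 3.80 times above Cd86 in normal medium, and 1.05 and 1.27 times above it in 4T1-CM. For the inhibitor, Cd86 gave log2 ratios of 0.13 (-0.50 to 0.77) without and -0.27 (-0.55 to 0.01) with 4T1-CM, and Cd80 gave 0.32 (-0.01 to 0.65) and 0.01 (-0.25 to 0.26). All 4 of these intervals include 0, so no difference with CH223191 was detectable at this depth for either gene, within the bounds of the intervals.

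B7-H3 and VISTA, the more distant B7 relatives, differed in direction. Cd276, which encodes B7-H3, lies on the minus strand at chr9:58524298-58555437 and had 514, 559, 1116 and 888 reads. Its log2 ratio of 4T1-CM over normal medium was 0.98 (0.83 to 1.14) with DMSO, just inside the 2-fold limit, and 0.64 (0.48 to 0.79) with CH223191. Vsir, which encodes VISTA, an inhibitory B7-like protein abundant on myeloid cells, lies on the plus strand at chr10:60346851-60372684. Vsir had 13141, 15135, 6593 and 7272 reads, or 824, 952, 377 and 448 CPM. Both 4T1-CM libraries were below both libraries in normal medium. The log2 ratio was -1.13 (-1.17 to -1.09) with DMSO and -1.09 (-1.13 to -1.05) with CH223191, so that Vsir was 2.19-fold and 2.13-fold lower in 4T1-CM. CH223191 over DMSO gave 0.21 (0.17 to 0.24) and 0.25 (0.20 to 0.30) for Vsir in normal medium and 4T1-CM, and 0.12 (-0.05 to 0.30) and -0.22 (-0.35 to -0.09) for Cd276. Gm10657, an unclassified gene on the opposite strand, shares 416 exon bases with Cd276 and had at most 6 reads. Cdh23, opposite Vsir, and Gm16184 and Gm16251, opposite Pvr, share 0 exon bases with them.

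Galectin-9 and its receptor TIM-3 were both higher in 4T1-CM. Lgals9 (chr11:78962974-78984946, minus strand) encodes galectin-9, a sugar-binding protein, and had 1063, 1262, 3175 and 2487 reads, or 66.7, 79.4, 181 and 153 CPM. Havcr2 (chr11:46454935-46481255, plus strand), which encodes TIM-3, had 382, 259, 1937 and 1607 reads, or 24.0, 16.3, 111 and 98.9 CPM. For both genes each 4T1-CM library was above each library in normal medium, and the share of all genes that did so was not counted. Lgals9 rose 2.72-fold with DMSO, a log2 ratio of 1.44 (1.34 to 1.55). With CH223191 it was 1.93-fold higher, at 0.95 (0.85 to 1.05), just under the limit. Havcr2 rose 4.61-fold with DMSO, at 2.21 (2.05 to 2.37), and 6.06-fold with CH223191, at 2.60 (2.41 to 2.80). The larger ratio with CH223191 came with a lower level in normal medium, where the inhibitor library was at -0.56 (-0.79 to -0.33) against DMSO, while in 4T1-CM it was at -0.16 (-0.26 to -0.07). Lgals9 was at 0.25 (0.13 to 0.37) with CH223191 in normal medium and at -0.24 (-0.32 to -0.17) in 4T1-CM.

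Pvr and Cd200r1 stayed within 2-fold in every comparison. Pvr (chr7:19903578-19921160, minus strand) encodes CD155, the ligand shared by the inhibitory TIGIT and the activating CD226, and had 377, 446, 814 and 650 reads. Its log2 ratio of 4T1-CM over normal medium was 0.97 (0.80 to 1.16) with DMSO and 0.51 (0.34 to 0.69) with CH223191, and that of CH223191 over DMSO was 0.25 (0.04 to 0.45) without and -0.22 (-0.37 to -0.07) with 4T1-CM. Cd200r1 (chr16:44765736-44794978, plus strand), the receptor that restrains myeloid cells when it binds CD200, had 2484, 2872, 1933 and 1857 reads. It was the only member besides Vsir with lower levels in 4T1-CM, at -0.50 (-0.58 to -0.41) with DMSO and -0.66 (-0.74 to -0.58) with CH223191, and stayed within 2-fold. With CH223191 it was at 0.21 (0.13 to 0.29) in normal medium and, with 4T1-CM, at 0.05 (-0.04 to 0.14). Cd200r4, a paralogue with up to 1014 reads, shares 1.16% of the 50-base words of Cd200r1.

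**Figure D2:**
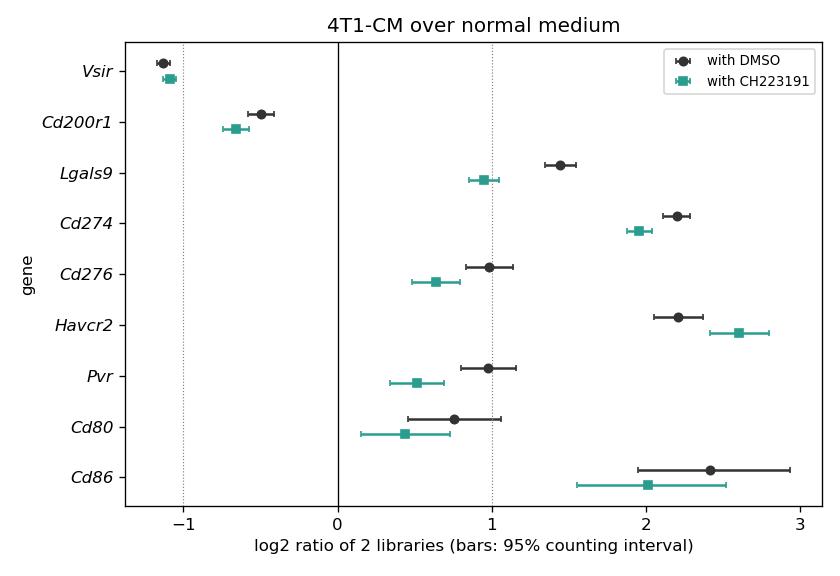
Log2 ratio of 4T1-CM over normal medium for 9 genes, with DMSO (circles) and with CH223191 (squares). Bars are 95% counting intervals and dotted lines mark 2-fold. Cd274, Cd86 and Havcr2 lie beyond the upper line in both comparisons and Vsir beyond the lower line in both.

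Counted together, 4 of the 10 members were at least 2-fold higher and 1 was lower in 4T1-CM with DMSO, against 12.2% and 6.12% of the 13715 genes with at least 10 reads in a library. Pdcd1lg2 had no fold here and could not pass, whereas the shares of all genes include genes at or under the floor in both libraries. With CH223191 the counts were again 4 higher, Pdcd1lg2 in place of Lgals9, and 1 lower, against 12.0% and 7.86% of genes. Cd274, Cd86 and Havcr2 were higher in both comparisons, as were 8.18% of genes, and Vsir was lower in both, as were 3.38%. The median log2 ratio of the members was 0.98 with DMSO, beside 0.01 over all genes, and 0.79 with CH223191, beside 0.02. Without Pdcd1lg2 the latter was 0.64. The summed neutrophil markers moved the same way as these genes, with 2 of 7 markers (Mmp8 and S100a8) at least 2-fold higher in both comparisons, while Cxcr2 (12, 9, 2 and 0 reads) was lower in both. So did 4 of 6 fibroblast markers (Col1a1, Col1a2, Col3a1 and Dcn), and the part of either cell type in the members' levels was not tested. Of the other markers, Lyz2, Cd14, Adgre1 and Fcgr1 of macrophages were higher in both comparisons, as were, on few reads, Clec9a (6, 0, 23 and 13) and Ccr7 (0, 1, 24 and 13) of dendritic cells and Cdh1 (3, 7, 16 and 20) of epithelium.

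Differences between CH223191 and DMSO stayed within 2-fold for all of the 10 genes except the sparsely read Pdcd1lg2. In normal medium 0 of 10 passed 2-fold in either direction, against 4.84% of genes higher and 3.31% lower. Pdcd1lg2 had no fold there and could not pass, while the shares of all genes were taken without that floor. In 4T1-CM only Pdcd1lg2 did, on its 16 reads, against 2.80% higher and 2.62% lower. No member passed in both media, as 0.678% of genes did upward and 0.481% downward. The member median was 0.21 without and -0.08 with 4T1-CM (-0.16 without Pdcd1lg2), beside 0.00 over all genes in each. In normal medium, 5 members had intervals above 0 (Cd274, Vsir, Lgals9, Cd200r1 and Pvr) and 1 had an interval below (Havcr2). In 4T1-CM, 3 lay above (Cd274, Vsir and Pdcd1lg2) and 4 below (Cd276, Lgals9, Havcr2 and Pvr). Over the 8323 genes whose mean level reached 10 CPM, the central 95% of log2 ratios ran from -0.51 to 0.73 in normal medium. In 4T1-CM the same span was -0.35 to 0.37. Of the 9 members detected in every library, only Havcr2 in normal medium fell outside these spans.

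**Figure D3:**
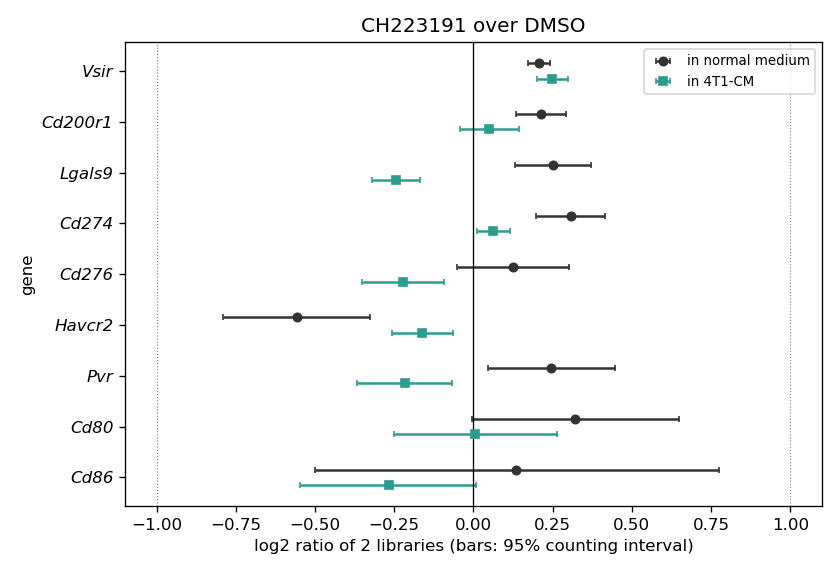
Log2 ratio of CH223191 over DMSO for 9 genes, in normal medium (circles) and in 4T1-CM (squares), with 95% counting intervals and dotted lines at 2-fold. No point reaches a dotted line. Lgals9 and Pvr lie to the right of 0 in normal medium and to the left in 4T1-CM.

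Whether the response to 4T1-CM differed with the AHR antagonist was read from the log2 ratio with CH223191 minus that with DMSO. It was -0.24 (-0.36 to -0.12, counting error only) for Cd274, -0.50 (-0.64 to -0.36) for Lgals9, -0.46 (-0.71 to -0.21) for Pvr and -0.35 (-0.56 to -0.13) for Cd276. These genes were all higher in 4T1-CM, by a smaller ratio with CH223191. For Cd274 the smaller ratio came with a higher level in normal medium with CH223191 (96.8 against 78.2 CPM). In 4T1-CM Cd274 was not lower with CH223191 (375 against 359 CPM). Lgals9 (-0.24), Pvr (-0.22) and Cd276 (-0.22) were lower with CH223191 in 4T1-CM, and at 0.25, 0.25 and 0.12 in normal medium. Cd200r1, which was lower in 4T1-CM, was at -0.16 (-0.28 to -0.04), a larger difference between the media with CH223191. Havcr2 alone had an interval above 0, at 0.39 (0.15 to 0.64). The intervals of Cd80 at -0.31 (-0.72 to 0.09), Cd86 at -0.40 (-1.06 to 0.26) and Vsir at 0.04 (-0.02 to 0.10) included 0. All 9 values lay inside the central 95% of the 8323 genes, which ran from -0.77 to 0.60 around a median of 0.01. Each of these differences uses all 4 libraries, and none could be tested without replicates.

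**Figure D4:**
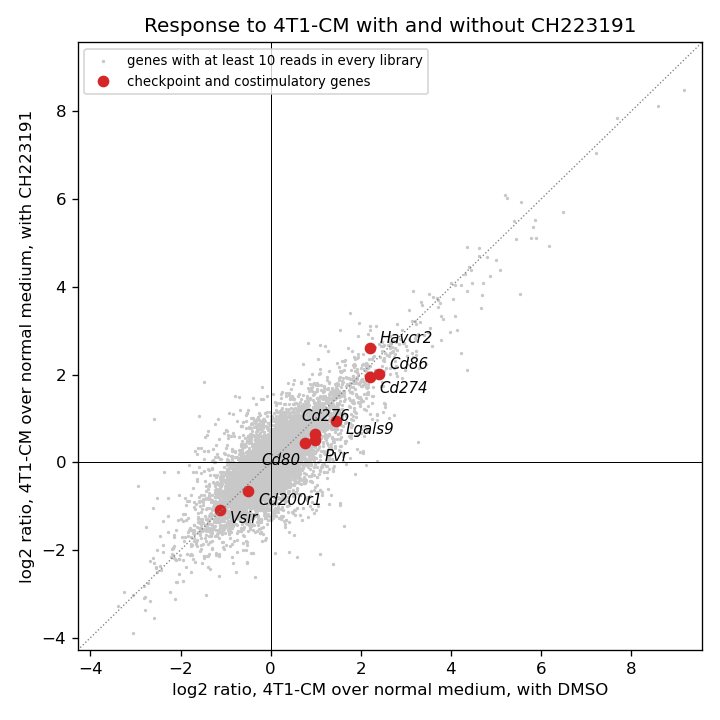
Log2 ratio of 4T1-CM over normal medium with DMSO (x axis) and with CH223191 (y axis) for the 11765 genes that had 10 or more reads in each of the 4 libraries, 9 members in red and the line of equal ratios dotted. Havcr2 lies above the line, Vsir close to it, and the other 7 below it.

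The order of the genes by length-scaled level differed between the media. In both libraries in normal medium Vsir led, at 164 and 190 RPKM, followed by Cd200r1 at 46.5 and 53.9, Lgals9 at 31.2 and 37.1 and Cd274 at 21.6 and 26.7. In 4T1-CM Cd274 led, at 99.1 and 104 RPKM, and Vsir was at 75.1 and 89.3, below Lgals9 (84.9) with DMSO and above it (71.6) with CH223191. Havcr2 had rank 4 in both 4T1-CM libraries, at 40.7 and 36.4 RPKM, and rank 6 in normal medium. The lower part of the order was alike in all 4 libraries, with Pvr, Cd80, Cd86 and Pdcd1lg2 last. With 1 library each, neighbours in this order have no spread between samples against which to be set, and Cd276 and Havcr2 were both at 8.81 RPKM in normal medium with DMSO.

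As a share of the summed RPKM of the 10 genes, Vsir took 57.0% and 57.2% in normal medium and 20.5% and 24.5% in 4T1-CM. Cd274 took 7.49% and 8.06% in normal medium and 27.1% and 28.4% in 4T1-CM. Vsir thus exceeded Cd274 by 7.61 and 7.10 times in normal medium, whereas Cd274 exceeded Vsir by 1.32 and 1.16 times in 4T1-CM. Without length scaling Vsir stayed above Cd274 in 4T1-CM, at 377 and 448 CPM against 359 and 375 CPM. Cd274 also stood further above the costimulatory Cd80 in 4T1-CM, at 24.4 and 25.4 times its RPKM, than in normal medium, at 8.98 and 8.89 times. Lgals9 exceeded its receptor Havcr2 by 3.54 and 6.20 times in normal medium and by 2.09 and 1.97 times in 4T1-CM. Such ratios depend on the deposited gene lengths, but their change between libraries does not.

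**Figure D5:**
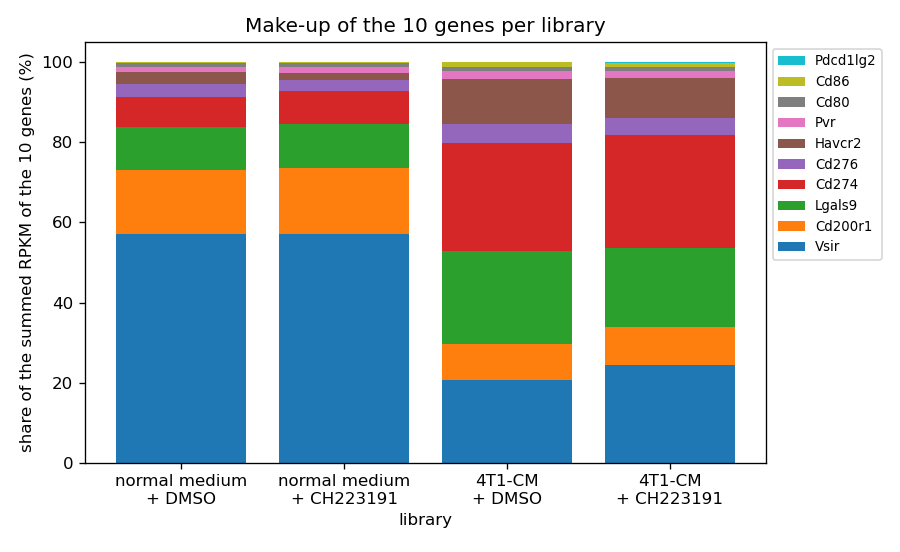
Share of each gene in the summed RPKM of the 10 genes (%), stacked per library and adding to 100%. Vsir makes up 57.0% and 57.2% of the bars in normal medium, and Cd274 is the largest part in both 4T1-CM libraries.

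Among the 8322 other genes whose mean level reached 10 CPM, the 5 whose pattern over the 4 libraries was closest to that of Cd274 were Rnase4, Ralgds, Osm, Birc3 and Dact2. Their Euclidean distances of centred log2 CPM were 0.0576, 0.104, 0.104, 0.114 and 0.143. Rnase4 encodes a secreted ribonuclease, Ralgds an exchange factor for Ral, Osm the cytokine oncostatin M, and Birc3 the ubiquitin ligase cIAP2. Of the 7 other members above that level, Havcr2 was nearest to Cd274, at a distance of 0.710 (rank 144), then Lgals9 at 0.908 (rank 228), and Vsir was farthest at 3.19 (rank 8087). Cd86 and Pdcd1lg2 fell below 10 CPM and were not ranked, and their distances by the same measure were 0.297 and 1.97, so that Cd86 lay closer to Cd274 than Havcr2 did. These are likenesses over 4 libraries and carry no test.

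Other ligands and receptors of T cell and phagocyte checkpoints were read from a list of 30 genes, of which 21 passed the filter and 5 (Btla, Btn2a2, Cd70, Fgl1 and Vtcn1) had 0 reads in every library. In 4T1-CM 6 were at least 2-fold higher and 2 lower with DMSO, and 9 higher and 3 lower with CH223191, with medians of 0.39 and 0.26. Of all genes, 12.2% were higher and 6.12% lower with DMSO, and 12.0% and 7.86% with CH223191. Cd300a, an inhibitory receptor for phospholipids, fell from 5772 and 6436 reads to 1387 and 1465, with log2 ratios of -2.19 and -2.17. Vsig4, a complement receptor that restrains T cells, fell from 116 and 110 reads to 34 and 34 (-1.89 and -1.71). Both of these inhibitory receptors moved in the direction of Vsir. Among the genes that rose, Cd24a, the ligand of Siglec-G, went from 538 and 440 reads to 2372 and 1656 (2.004 and 1.88), and Nectin2, which like Pvr binds TIGIT and CD226, from 100 and 84 to 359 and 326 (1.70 and 1.92). Cd40, the receptor through which helper T cells activate macrophages, went from 11 and 13 reads to 85 and 83 (2.76 and 2.60). The others past 2-fold in both comparisons had few reads in normal medium. They were Tnfsf9 (3 and 12 reads, then 64 and 50 in 4T1-CM), Icosl (7 and 2, then 25 and 15) and Siglecg (3 and 1, then 23 and 12). The abundant SIRPα gene Sirpa was at -0.16 and -0.05, and its ligand Cd47 at 0.91 and 1.14. With CH223191, 1 gene of the list was higher and 4 were lower in normal medium, against 4.84% and 3.31% of all genes. In 4T1-CM 1 was higher and 0 lower, against 2.80% and 2.62%. All rest on few reads. In normal medium they were Tnfsf9 (3 reads with DMSO, 12 with CH223191), Icosl (7 and 2), Nectin3 (9 and 3), and Siglecg and Tnfsf15 (3 and 1 each). In 4T1-CM it was Tnfsf15 (5 and 11). Apart from that of Tnfsf9, the intervals include 0.

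Of 20 listed genes of interferon and STAT signalling upstream of Cd274, all passed the filter on reads. In 4T1-CM 4 were at least 2-fold higher with DMSO and 5 with CH223191, 0 were lower in either, and the medians were 0.66 and 0.36. Of all genes, 12.2% were higher and 6.12% lower with DMSO, and 12.0% and 7.86% with CH223191. Socs3, a feedback inhibitor of cytokine receptors, went from 20 and 44 reads to 1622 and 1385, with log2 ratios of 6.17 (5.57 to 6.92) and 4.93 (4.51 to 5.41). Irf7, a regulator of type I interferon, went from 225 and 330 reads to 2954 and 2132 (3.58 and 2.66), and Ifnar2, a chain of its receptor, from 1371 and 1658 to 3377 and 3441 (1.17 and 1.02). Cish, a target of STAT5, had 0 reads in both libraries in normal medium and 15 and 24 in 4T1-CM. Set against the floor of 3 reads per library, it was 4.55-fold and 7.83-fold higher. The counting intervals of its log2 ratios started at 1.71 and 2.56. The 4 were Socs3, Irf7, Ifnar2 and Cish, and the fifth with CH223191 was Jak2 at 1.24, which was at 0.98 with DMSO. Irf1, the factor best known for inducing Cd274 after interferon-γ, was at 0.01 and -0.04. With CH223191 only Socs3 in normal medium passed 2-fold, at 1.12 (0.35 to 1.98), where 4.84% of all genes were higher.

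Of 10 listed genes acting on PD-L1 protein after translation, 0 passed 2-fold with 4T1-CM in either comparison. Of all genes, 12.2% were higher and 6.12% lower with DMSO, and 12.0% and 7.86% with CH223191. The medians of the list were -0.13 and 0.12. Cmtm6, which keeps PD-L1 from degradation, had 2006, 1678, 1988 and 1920 reads. Hip1r, which directs PD-L1 to lysosomes, was the only one past 2-fold with CH223191, at 1.498 (0.06 to 3.40) without and 1.03 (-0.79 to 3.29) with 4T1-CM, on 5, 15, 4 and 8 reads. With CH223191, 4.84% and 2.80% of all genes were at least 2-fold higher in normal medium and 4T1-CM. The level of PD-L1 protein was not measured in these libraries.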

How the data were processed

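RNA of 4 macrophage cultures was sequenced, 1 library per condition. The table the authors deposited holds raw, whole-number counts for each gene and a gene length in bases. HISAT2 2.0.5 and DESeq2 stand in the submitters' processing notes. The counting tool, genome build and use of strand for this table are not given in the sources used here, so overlapping genes are uncertain. The gene coordinates of 53462 of 54409 genes shared with GENCODE M21 (GRCm38) were equal to it.

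Of entries sharing a symbol, that with most reads was used. The filter was 10 or more reads in 1 or more libraries, which 13715 genes passed. Counts were scaled by TMM (edgeR 4.0.16, R 4.3.3), and log2 ratios were taken with a prior count of 0.5 and exact Clopper-Pearson 95% intervals of the read split (scipy 1.17.1, numpy 2.4.6 and pandas 2.3.3 in Python 3.11.15). The difference between 2 ratios has an interval from a normal approximation on log counts. RPKM used the deposited lengths. Genes with at most 3 reads in both libraries got no fold. Near-identical copies were measured as 50-base words shared with transcripts of other genes.

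The text names the 10 members, their overlapping genes, the 5 genes nearest to Cd274, genes of fixed lists past 2-fold in 1 direction in both 4T1-CM or both CH223191 comparisons, and Actb and Ahr. Ratios of other list genes and of AHR targets are given for orientation and were chosen after their values were seen. The members and lists were chosen with earlier results of these data known. Procedures were tested on simulated data. The alternatives tried were scaling by DESeq2 1.42.0 size factors or by total counts, other filters, a prior count of 5, a table of protein-coding genes, and the quasi-likelihood test of edgeR in an additive model with Benjamini-Hochberg adjustment. Figures were drawn with matplotlib 3.10.9.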

Additional observations from a re-analysis of the deposited data

Results flagged for a closer look

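The log2 ratio of CH223191 over DMSO had opposite signs in the 2 media for 2 genes, with both counting intervals clear of 0. Lgals9 was at 0.25 in normal medium and at -0.24 in 4T1-CM. Pvr was at 0.25 in normal medium and at -0.22 in 4T1-CM. Each value compares 1 library with 1 library, and the difference was not tested.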

How the results depend on the processing

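Without replicates the variation between cultures is not known, and no 2-library value has a p-value. Under the alternatives, 225 member ratios stayed within the counting interval of the value given, 1 did not (Vsir with CH223191 in normal medium, 0.15 by total counts) and none past 2-fold changed sign. Cd80 with CH223191 in 4T1-CM, at 0.00571, was at -0.00624 with DESeq2 size factors and -0.00268 by total counts. The share of all genes past 2-fold depended on low counts. Without a filter it was 21.0% higher and 11.8% lower (4T1-CM with DMSO), 19.9% and 13.7% (4T1-CM with CH223191), 12.8% and 10.3% (CH223191 in normal medium), and 11.8% and 12.3% (CH223191 in 4T1-CM). With at least 10 reads in every library, 7.22% and 7.38% were higher in 4T1-CM with DMSO and with CH223191, CH223191 moved 1.92% up and 0.756% down in normal medium, and 0.705% and 0.45% in 4T1-CM, where 0 members were then higher because Pdcd1lg2 leaves the test. Under that filter 5 members were higher in 4T1-CM with DMSO, Cd276 passing at 1.008, and 3 with CH223191. A prior count of 5 gave 2.65% and 1.22% for CH223191 in normal medium and 1.33% and 1.01% in 4T1-CM, and protein-coding genes alone 3.06% and 2.17% in normal medium and 1.34% higher in 4T1-CM. No paired analysis was possible because each condition has 1 library and the labels carry no replicate numbers. The additive quasi-likelihood fit of edgeR over the 4 libraries, with 1 residual degree of freedom, takes any dependence of one treatment on the other as noise. At an adjusted p under 0.05 it called 2248 genes higher and 2228 lower with 4T1-CM (32.6%), among them 9 of the 10 members, with adjusted p from 8.28e-07 (Havcr2) to 0.0248 (Cd80), 1.51e-06 for Cd274 and 0.0852 for Pdcd1lg2. For CH223191 it called 10 higher and 1 lower (0.0802%), 880 at an unadjusted p under 0.05, and no member, whose lowest adjusted p was 0.762 (Havcr2).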

Other observations

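Partners on T cells of checkpoint and costimulatory molecules were read from a list, and most were at or near 0. The list also holds partners of molecules other than the members, and CD226 was not on it. Of 8 such genes, Pdcd1 (PD-1), Tigit, Cd96 and Cd40lg had 0 reads in every library, and Icos, Lag3 and Ctla4 had at most 2. Cd28, the receptor of CD80 and CD86, was the exception, with 73 reads in normal medium with DMSO, 42 with CH223191 and 1 in each 4T1-CM library. Its log2 ratios of 4T1-CM over normal medium were -5.75 (-11.65 to -3.80) with DMSO and -4.86 (-10.76 to -2.87) with CH223191. Of 7 T cell markers, Cd3d, Cd3e, Cd3g and Cd8a had 0 reads in the same libraries, while Cd2 had 14, 23, 14 and 3 reads, Lck 11, 7, 13 and 18 and Cd4 11, 6, 10 and 3.

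The macrophage markers themselves were not level between the media. Cd14, a coreceptor for bacterial lipopolysaccharide, had 4379 and 3808 reads in normal medium and 55189 and 55483 in 4T1-CM, and Adgre1, a surface receptor typical of mouse macrophages, had 4098 and 3912 reads against 17920 and 14168. With DMSO 5 of 8 markers were at least 2-fold higher in 4T1-CM and with CH223191 4 were, against 12.2% and 12.0% of all genes.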
